A study of Mus musculus with 24 samples.

Results

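The immediate early genes described here are 10 mouse genes, Fos, Fosb, Fosl1, Junb, Egr1, Egr2, Ier2, Ier3, Myc and Phlda1, chosen by symbol among the 21072 genes measured on the arrays. All 10 were measured, each by 1 probe set that carries that symbol alone and the cross-hybridisation code 1. The choice of these genes rests on their names and not on a threshold of expression. The samples are cultures of neural stem cells from the subventricular zone, the layer beside the lateral ventricle in which neurons are made in the adult brain. The series set cultures in which Mll1 was deleted against wild-type cultures during differentiation, and Mll1, now named Kmt2a, encodes an enzyme that methylates lysine 4 of histone H3. Mll1-deleted cultures came from mice 489, 814 and 858 and wild-type cultures from mice 818, 862 and 870. Each mouse gave 1 array on days 0, 1, 2 and 4, so that there are 8 groups of 3 arrays and 24 arrays in all. Day 0 cells were dividing in a medium with serum, epidermal growth factor (EGF), fibroblast growth factor (FGF), N2 supplement and bovine pituitary extract. From then on the medium held the supplement and the extract but no serum, EGF or FGF. The labels state neither the allele nor the driver of the deletion, nor the age or strain of the mice, and the cultures had been passaged before use.

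Immediate early genes are transcribed within minutes of a stimulus, without new protein synthesis, from promoters that are already poised. EGF and FGF receptors signal through the kinases RAF, MEK and ERK, which phosphorylate the ternary complex factors that sit with serum response factor (SRF) on CArG boxes. The products are mostly transcription factors, such as the Fos and Jun proteins that pair as AP-1, the zinc finger proteins of the Egr family and Myc, and their messenger RNAs are short-lived. In neural stem cells, EGF and FGF are the mitogens that keep the cells dividing in culture.

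Values are array intensities, linear and normalised by the authors over the whole array, and ± after a log2 difference is its standard error (SE). Member intensities ran from 44.2 to 1216, against lower quartiles of 23.3 to 28.3 and medians of 75.6 to 87.1 over all probe sets of an array. Intensities of different probe sets cannot be set against each other. The sums of marker intensities given below weigh the brightest markers most. Arrays of one group correlated with each other at r of 0.984 to 0.996. The defining markers of neural stem cells and progenitors, 8 of 8 measured, all lay above the lower quartile in every group, and those of microglia summed to between 221 and 272 in every group, with Aif1 under the quartile. The 5 fibroblast markers, all measured, summed to between 725 and 3588 in Mll1-deleted cultures on day 0, with the highest sum in mouse 814, against 366 to 386 in wild-type cultures. Lum, one of them, lay under the lower quartile in every group. Pdgfra, another of them, is also among the oligodendrocyte lineage markers given below, so these sums share a gene and are not specific to fibroblasts. Kmt2a read 542 ± 53.2 in Mll1-deleted and 391 ± 55.7 in wild-type cultures on day 0 (SD, n = 3 each), a difference of 0.48 ± 0.13 on the log2 scale (adjusted p = 0.0175, 0.139 without mouse 489, 0.124 without mouse 814 and 0.0839 without mouse 870). Where its probes lie relative to the deleted part is not known here, so this value does not check the deletion.

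Promoter windows of 5 of the 10 members were found in the RefSeq table (GRCm38.p6), and 3 are shown because they belong to a gene that rose in both genotypes (Fos), one that rose in Mll1-deleted cultures and passed no test in wild-type ones (Egr2) and the one with the largest fall among the members (Ier3). Each window is the 250 bases before the transcription start, 5′ to 3′, and capitals mark motif matches on either strand.
Fos, chr12:85473640-85473889, plus strand: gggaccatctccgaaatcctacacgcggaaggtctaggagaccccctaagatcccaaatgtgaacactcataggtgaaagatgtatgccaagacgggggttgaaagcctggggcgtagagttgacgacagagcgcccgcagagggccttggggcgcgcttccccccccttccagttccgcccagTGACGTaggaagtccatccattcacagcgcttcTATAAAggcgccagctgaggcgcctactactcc
Egr2, chr10:67537619-67537868, plus strand: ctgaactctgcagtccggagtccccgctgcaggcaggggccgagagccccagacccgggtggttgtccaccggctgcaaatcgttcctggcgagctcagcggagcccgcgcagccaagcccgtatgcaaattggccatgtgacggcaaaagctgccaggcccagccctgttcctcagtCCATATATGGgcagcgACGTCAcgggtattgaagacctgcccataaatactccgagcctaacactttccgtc
Ier3, chr17:35821463-35821712, plus strand: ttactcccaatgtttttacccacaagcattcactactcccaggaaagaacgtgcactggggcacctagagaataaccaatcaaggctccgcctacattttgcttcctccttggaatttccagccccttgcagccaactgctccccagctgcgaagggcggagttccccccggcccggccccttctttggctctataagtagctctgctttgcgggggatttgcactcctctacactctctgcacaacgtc
In the Fos window, TGACGT, the core of the site bound by CREB, lies 66 to 61 bases before the start and TATAAA, the TATA box, 33 to 28 bases before it. In the Egr2 window a CArG box spans the bases 72 to 63 before the start, and TGACGT on the other strand the bases 56 to 51. Egr2 has 5 listed starts, of which the third is shown, and the 4 windows other than the first hold a CArG box. Windows 3, 4 and 5 overlap and hold the same box (CCATATATGG), and window 2 holds another (CCTTTTTTGG). The Ier3 window holds no match to any motif searched. The Fosb window holds GCGNGGGCG, the site of Egr proteins, and the Junb window holds no match. Of 32851 windows of the same length, 1.47% hold a CArG box, 6.47% TGACGT and 1.55% the full TGACGTCA that contains it. TATAAA was in 12.4%, GCGNGGGCG in 4.7%, TGANTCA (AP-1) in 6.75%, CCGGAAG (ETS factors) in 6.91% and CACGTG (Myc and Max) in 6.02%. A match describes these letters only. Bases outside the windows were not searched, so a motif missing here, such as a CArG box for Fos, is missing from the window alone.

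After growth factors and serum were withdrawn, the 10 genes did not move together in either genotype. In Mll1-deleted cultures Fos, Egr1 and Egr2 rose on day 1 while Fosl1 and Ier3 fell. In wild-type cultures Fos rose on day 1 while Ier2, Ier3, Myc and Phlda1 fell. The arrays come from bulk cultures, so that fewer cells of a type and less RNA per cell cannot be told apart. Calls are at an adjusted p under 0.05 (limma, Benjamini-Hochberg over all genes). In Mll1-deleted cultures 3 of 10 were called higher on day 1 than on day 0, against 5.87% of all genes, and 2 lower, against 6.52%. On day 2 the counts were 4 higher (9.41% of all genes) and 2 lower (13.9%). On day 4 they were 4 higher (13.9%) and 3 lower (15.7%), and without mouse 814 only 4 of these 7 calls stood. In wild-type cultures 1 was called higher on day 1 (11.7% of all genes) and 4 lower (13.8%). On day 2, 1 was higher (15.6%) and 3 lower (18.0%), and on day 4, 4 were lower (20.4%). The comparisons of a genotype share its day 0 arrays. The median log2 change of the members on day 1 was -0.04 in Mll1-deleted and -0.32 in wild-type cultures, beside -0.02 and 0.02 over all genes.

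**Figure D1:**
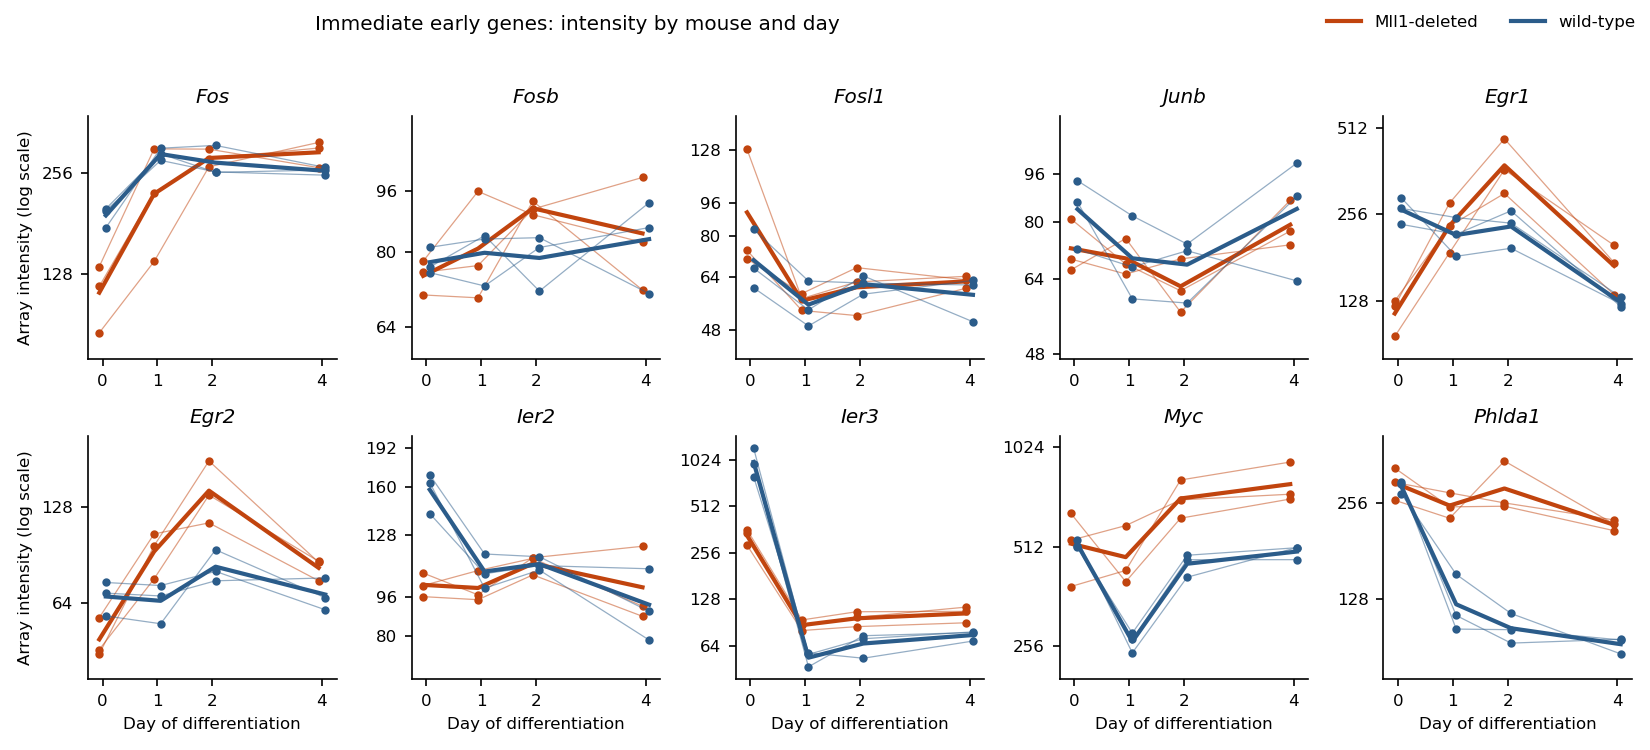
Intensity (log scale, each panel with its own range) against the day of differentiation for the 10 immediate early genes, with thin lines for single mice and thick lines for the mean of 3 mice, in Mll1-deleted (orange) and wild-type (blue) cultures. Ier3 fell in both genotypes from day 0, Egr1 and Egr2 have their highest Mll1-deleted means on day 2 (379 and 145), and Phlda1 and Myc lie above wild-type in Mll1-deleted cultures on days 1, 2 and 4.

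Between neighbouring days fewer members moved. From day 1 to day 2 in Mll1-deleted cultures limma called 0 of 10 members, where 0.389% of all genes were called in either direction, while 4 had an unadjusted p under 0.05. With the mouse as a replicate block it called 2, Egr1 (adjusted p = 0.0287) and Egr2 (adjusted p = 0.0475), and both were also called without mouse 858 (adjusted p = 0.0451 and 0.0173). From day 2 to day 4 in Mll1-deleted cultures 2 members, Egr1 and Egr2, fell (6.5% of all genes did), and without mouse 489 the count was 1. In wild-type cultures 1 member, Myc, rose from day 1 to day 2 (2.28% of all genes), with no call without mouse 818, 862 or 870. From day 2 to day 4 in wild-type cultures 1 member, Egr1, fell (7.2% of all genes), with no call without mouse 870.

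**Figure D2:**
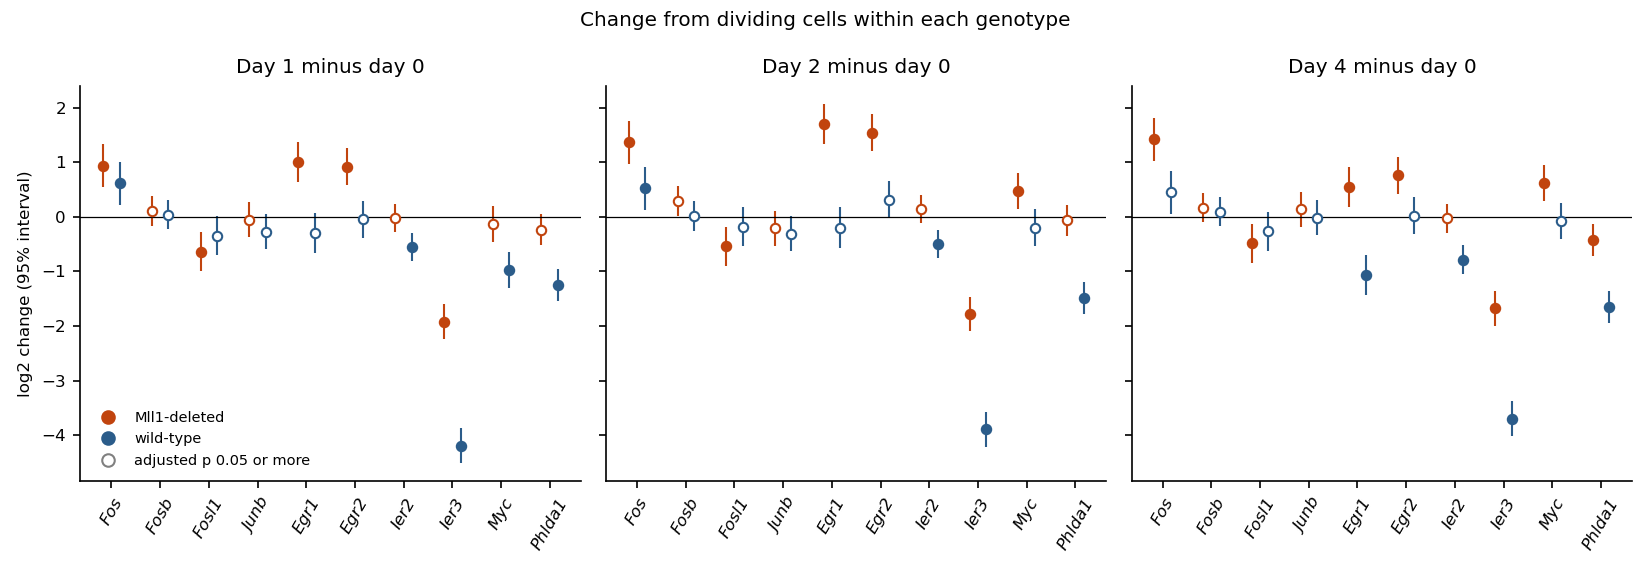
log2 change from day 0 with its 95% interval for each member on days 1, 2 and 4, in Mll1-deleted (orange, left of each pair) and wild-type cultures (blue), with filled points at an adjusted p under 0.05. Fos, Egr1 and Egr2 lie above 0 in Mll1-deleted cultures on all 3 days, and Ier3 lies below 0 in both genotypes.

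Set against wild-type cultures, Mll1-deleted cultures were lower in 4 immediate early genes on day 0 and higher in 5 on day 2, and Egr1 and Ier3 were among both. On day 0, Fos, Egr1, Ier2 and Ier3 were lower in Mll1-deleted cultures, 4 of 10 members against 4.71% of all genes. On day 1, Ier3, Myc and Phlda1 were higher, 3 of 10 against 3.61%. On day 2, Egr1, Egr2, Ier3, Myc and Phlda1 were higher, 5 of 10 against 4.01%, with a count of 1 without mouse 489, 3 without mouse 818 and 2 without mouse 862. On day 4, Myc and Phlda1 were higher, 2 of 10 against 3.73%, with a count of 1 without mouse 862 or 870 and 3 without mouse 858. Over the mean of the 4 days, with 1 value per mouse, the same 2 genes were higher, 2 of 10 against 3.59%. The day 0 difference of 3 of the 4 genes was called under every alternative setting tried; that of Fos was not called without mouse 862 (adjusted p = 0.0569).

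**Figure D3:**
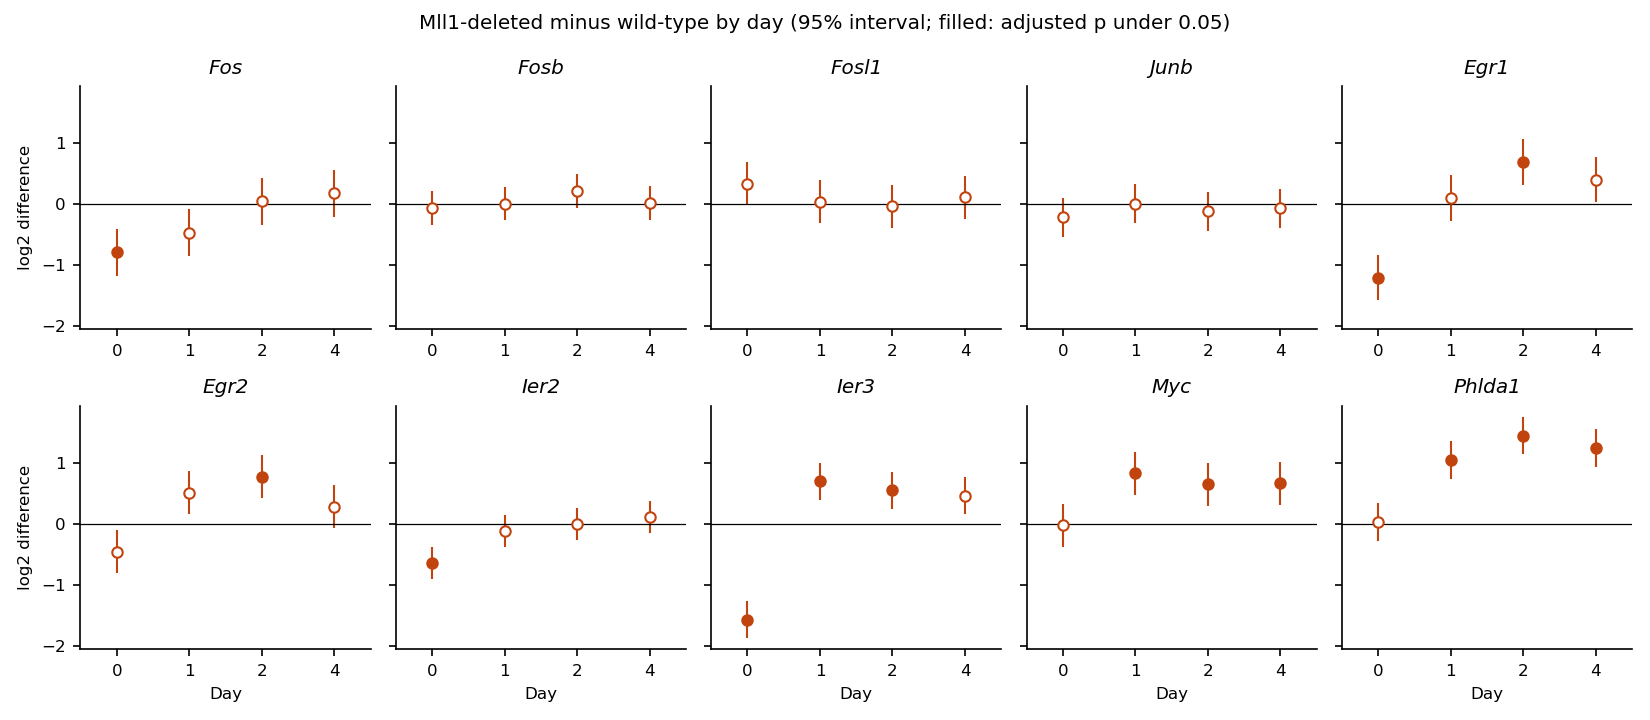
Mll1-deleted minus wild-type log2 difference on each day (95% interval, filled points at an adjusted p under 0.05) for the 10 members. Egr1 and Ier3 lie below 0 on day 0 and above it on day 2, while Phlda1 lies near 0 on day 0 and between 1.05 and 1.45 on days 1 to 4.

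The change from day 0 itself differed between the genotypes for 7 of the 10 members on at least 1 day, each time more positive in Mll1-deleted cultures. On day 1 these were Egr1, Egr2, Ier3, Myc and Phlda1, 5 of 10 against 1.28% of all genes higher. On day 2 they were Egr1, Egr2, Ier2, Ier3 and Phlda1, 5 of 10 against 2.18%, and on day 4 Fos, Egr1, Ier2, Ier3 and Phlda1, 5 of 10 against 3.27%. The day 1 count was 1 without mouse 818, 2 without mouse 489 or 870 and 3 without mouse 862. The day 4 count was 3 without mouse 489, 818 or 862. All 3 of these comparisons, the changes from day 0 and the day 0 difference use the same day 0 arrays. Median differences in change over the members were 0.69, 0.76 and 0.74 on days 1, 2 and 4, beside -0.02, -0.02 and 0.03 over all genes.

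Among the AP-1 genes, Fos, the founding member of the Fos family, rose in both genotypes and started lower in Mll1-deleted cultures. Values of 3 mice are given in the order 489, 814 and 858 for Mll1-deleted cultures and 818, 862 and 870 for wild-type cultures. In Mll1-deleted cultures Fos read 117, 85.1 and 134 on day 0, 224, 139 and 302 on day 1, 283, 267 and 302 on day 2, and 304, 316 and 266 on day 4. In wild-type cultures it read 198, 200.1 and 176 on day 0, 279, 292 and 304 on day 1, 258, 257 and 309.7 on day 2, and 252, 261 and 266 on day 4. On day 0 all 3 Mll1-deleted cultures lay below all 3 wild-type ones, whereas the ranges overlapped on days 1, 2 and 4. The rise in Mll1-deleted cultures was 0.94 ± 0.19 on day 1 (adjusted p = 0.00168), 1.36 ± 0.19 on day 2 (adjusted p = 2.14e-05) and 1.42 ± 0.19 on day 4 (adjusted p = 5.92e-06). The 6 astrocyte markers, all measured and none under the lower quartile in any group, summed to 9939 to 17210 on day 0, 15140 to 23460 on day 1, 22120 to 26070 on day 2 and 24490 to 30020 on day 4 in Mll1-deleted cultures. In wild-type cultures the sums were 18870 to 20790, 32090 to 34360, 30760 to 34060 and 24220 to 30420 on the same days, and the part of these cells in the values of Fos was not tested. The Mll1-deleted rise of Fos on day 1 was not called in a fit to the arrays compared alone (adjusted p = 0.119). In wild-type cultures the change was 0.61 ± 0.19 on day 1 (adjusted p = 0.0182), 0.52 ± 0.19 on day 2 (adjusted p = 0.0353) and 0.45 ± 0.19 on day 4 (adjusted p = 0.0672, 0.0338 with the replicate block, 0.00628 without mouse 814 and 0.0201 without mouse 858). The day 1 call was lost without mouse 818, 862 or 870 (adjusted p = 0.079, 0.0945 and 0.171), and that of day 2 without mouse 489, 818, 862 or 870 (adjusted p = 0.0628, 0.103, 0.0892 and 0.311) and with each array shifted to 1 median (adjusted p = 0.117). The day 0 difference of Fos, Mll1-deleted minus wild-type, was -0.79 ± 0.19 (adjusted p = 0.00644). The difference in change reached 0.97 ± 0.27 on day 4 (adjusted p = 0.0319) and was lost without mouse 489, 818, 862 or 870 (adjusted p = 0.143, 0.134, 0.15 and 0.109) and with the values quantile normalised again (adjusted p = 0.0612). On day 2 it was 0.84 ± 0.27 (adjusted p = 0.0716, 0.0271 with the replicate block and 0.0143 without mouse 858).

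Fosl1, also called Fra-1, was higher in dividing Mll1-deleted cells than later, and its values turn on 1 mouse. In Mll1-deleted cultures it read 70.7, 129 and 74.0 on day 0, 58.4, 56.9 and 53.3 on day 1, 67.4, 62.3 and 51.8 on day 2, and 63.0, 64.2 and 60.2 on day 4. In wild-type cultures it read 67.2, 60.3 and 83.0 on day 0, 53.5, 49.0 and 62.6 on day 1, 64.4, 58.2 and 61.9 on day 2, and 50.1, 62.8 and 61.2 on day 4. The value of mouse 814 on day 0 stands above all others, and that array also had the highest sum of fibroblast markers (3588); the part of these in the result was not tested. The Mll1-deleted change was -0.64 ± 0.17 on day 1 (adjusted p = 0.0145), -0.54 ± 0.17 on day 2 (adjusted p = 0.0237) and -0.49 ± 0.17 on day 4 (adjusted p = 0.0348). Without mouse 814 the adjusted p was 0.207, 0.296 and 0.374 on these days, and the changes were -0.37, -0.29 and -0.23. In fits to the arrays compared alone the adjusted p was 0.161, 0.139 and 0.136. The day 2 call was also lost without mouse 858 (adjusted p = 0.0712) and that of day 4 without mouse 818 (adjusted p = 0.0509).

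Fosb and Junb, further partners in AP-1, were called by limma in 0 of the 18 comparisons, and each had an unadjusted p under 0.05 in 1 of them. Fosb ran from 69.9 to 99.9 over all arrays with a smallest adjusted p of 0.116, in Mll1-deleted cultures on day 2 at 0.29 ± 0.13 (95% interval 0.02 to 0.56). Its Mll1-deleted readings were 75.4, 70.5 and 77.9 on day 0 and 90.9, 93.1 and 89.4 on day 2, against 75.3, 76.5 and 81.2 and 81.1, 71.3 and 83.5 in wild-type cultures on the same days. All 3 Mll1-deleted cultures lay above the wild-type ones on day 2, and the groups overlapped on the other days. Junb ran from 56.4 to 100.3, with a smallest adjusted p of 0.136, in wild-type cultures on day 2 at -0.31 ± 0.15 (95% interval -0.63 to 0.01). Its largest change was 0.35, from day 2 to day 4 in Mll1-deleted cultures, which is the comparison with an unadjusted p under 0.05. On day 0 Junb read 69.2, 80.8 and 66.4 in Mll1-deleted cultures and 71.8, 86.3 and 93.7 in wild-type cultures, and on day 2 it read 69.2, 61.2 and 56.4 in Mll1-deleted cultures and 71.5, 58.4 and 73.3 in wild-type cultures. On day 4 it read 73.1, 77.1 and 86.9 in Mll1-deleted cultures and 63.6, 88.2 and 100.3 in wild-type cultures. The genotypes overlapped on all 4 days.

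In Mll1-deleted cultures the Egr genes were above day 0 on days 1 and 2, had their highest means on day 2 and fell by day 4. Their change from day 1 to day 2 was 0.69 for Egr1 and 0.63 for Egr2. It was not called in the main limma fit (adjusted p = 0.0899 and 0.0917). Egr1, a zinc finger factor that many growth signals induce, read 123, 96.5 and 128 in Mll1-deleted cultures on day 0, 281, 189 and 233 on day 1, 468, 366 and 303 on day 2, and 174, 200.0 and 135 on day 4. In wild-type cultures it read 292, 269 and 237 on day 0, 183, 249.6 and 218 on day 1, 195, 239 and 263 on day 2, and 125, 132 and 123 on day 4. On day 0 all 3 Mll1-deleted cultures lay below the wild-type ones, and on days 2 and 4 all 3 lay above them. The Mll1-deleted change from day 0 was 1.01 ± 0.18 on day 1 (adjusted p = 0.000561), 1.70 ± 0.18 on day 2 (adjusted p = 1.16e-06) and 0.54 ± 0.18 on day 4 (adjusted p = 0.0248). The last was lost without mouse 489 or 814 (adjusted p = 0.0646 and 0.357, the change being 0.29 without mouse 814), in a fit to the arrays compared alone (adjusted p = 0.0534) and with each array shifted to 1 median (adjusted p = 0.0959). From day 2 to day 4 Egr1 fell by 1.16 ± 0.18 in Mll1-deleted cultures (adjusted p = 0.000298).

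In wild-type cultures Egr1 was lower on day 4 than on day 0, at -1.06 ± 0.18 (adjusted p = 4.58e-05), and lower than on day 2, at -0.86 ± 0.18 (adjusted p = 0.00224, 0.07 without mouse 870). The genotype difference was -1.20 ± 0.18 on day 0 (adjusted p = 7.87e-05) and 0.69 ± 0.18 on day 2 (adjusted p = 0.0159). That of Egr1 on day 2 was lost without mouse 489, 818 or 862 (adjusted p = 0.166, 0.126 and 0.0564). For Egr1 the difference in change was 1.30 ± 0.25 on day 1 (adjusted p = 0.00549, 0.0722 without mouse 818), 1.90 ± 0.25 on day 2 (adjusted p = 9.84e-05) and 1.60 ± 0.25 on day 4 (adjusted p = 0.000542). On days 2 and 4 it was called under every alternative tried.

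Egr2, known as Krox20 and needed for Schwann cells to make myelin, was highest on day 2 in Mll1-deleted cultures, as was Egr1. In Mll1-deleted cultures it read 44.2, 45.7 and 57.6 on day 0, 97.0, 76.3 and 106 on day 1, 179, 140.0 and 114 on day 2, and 86.0, 86.6 and 75.2 on day 4. Wild-type cultures gave 58.3, 74.3 and 68.7 on day 0, 55.1, 72.6 and 67.3 on day 1, 94.2, 80.5 and 75.2 on day 2, and 66.5, 60.9 and 76.8 on day 4. On day 0 every Mll1-deleted culture lay below every wild-type one, with a difference that was not called (-0.45 ± 0.17, adjusted p = 0.107), and on days 1 and 2 every one lay above. The Mll1-deleted rise was 0.92 ± 0.16 on day 1 (adjusted p = 0.000563), 1.54 ± 0.16 on day 2 (adjusted p = 1.18e-06) and 0.76 ± 0.16 on day 4 (adjusted p = 0.00106), with a fall from day 2 to day 4 of -0.79 ± 0.16 (adjusted p = 0.00235, 0.0586 without mouse 489). The genotype difference of Egr2 was 0.78 ± 0.17 on day 2 (adjusted p = 0.00462, 0.0722 without mouse 489) and 0.51 ± 0.17 on day 1 (adjusted p = 0.0739). The difference in change was 1.23 ± 0.23 on day 2 (adjusted p = 0.00234), which was called under every alternative tried. On day 1 it was 0.96 ± 0.23 (adjusted p = 0.0238) and was lost without mouse 489, 814, 818, 862 or 870 (adjusted p = 0.146, 0.0695, 0.0917, 0.103 and 0.125) and in a fit to the arrays compared alone (adjusted p = 0.0555). On day 4 it was 0.73 ± 0.23 (adjusted p = 0.0627, 0.0114 without mouse 858).

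Ier3, also called IEX-1, is induced by growth factors and stress and is known for its links to cell survival and ERK signalling. It fell further than any other member, and fell less in Mll1-deleted cultures. In Mll1-deleted cultures Ier3 read 360.5, 346 and 287 on day 0, 94.1, 86.8 and 80.3 on day 1, 106, 97.7 and 85.2 on day 2, and 107, 114 and 90.2 on day 4. The wild-type readings were 958, 795 and 1216 on day 0, 46.8, 57.7 and 56.3 on day 1, 74.4, 53.2 and 71.1 on day 2, and 78.0, 68.7 and 78.8 on day 4. The groups did not overlap on any day, with Mll1-deleted cultures lower on day 0 and higher on days 1, 2 and 4. On days 2 and 4 Ier3 was lower than on day 0, with differences of -1.78 ± 0.15 and -1.67 ± 0.15 in Mll1-deleted cultures (adjusted p = 7.55e-08 and 6.09e-08), and of -3.90 ± 0.15 and -3.70 ± 0.15 in wild-type cultures (adjusted p = 2.01e-13 and 5.95e-13). The genotype difference was -1.57 ± 0.15 on day 0 (adjusted p = 2.8e-07), 0.70 ± 0.15 on day 1 (adjusted p = 0.00309), 0.55 ± 0.15 on day 2 (adjusted p = 0.0185) and 0.46 ± 0.15 on day 4 (adjusted p = 0.0628, 0.0377 without mouse 858). That of day 2 was lost without mouse 489, 814 or 862 (adjusted p = 0.157, 0.0895 and 0.094). The difference in change was 2.27 ± 0.22 on day 1 (adjusted p = 8.2e-06), 2.12 ± 0.22 on day 2 (adjusted p = 2.16e-05) and 2.03 ± 0.22 on day 4 (adjusted p = 1.26e-05), called under every alternative tried.

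Phlda1, a protein with a pleckstrin homology-like domain that FGF and other growth signals induce, stayed high in Mll1-deleted cultures. There it read 297, 329 and 261 on day 0, 275, 248 and 229 on day 1, 256, 249.5 and 346 on day 2, and 226, 209 and 219 on day 4. Wild-type cultures gave 297, 273 and 294 on day 0, 113, 152 and 103 on day 1, 92.7, 115 and 102 on day 2, and 95.3, 85.7 and 94.8 on day 4. On day 0 the groups overlapped, and on days 1, 2 and 4 all Mll1-deleted cultures lay above all wild-type ones. The wild-type change was -1.25 ± 0.14 on day 1 (adjusted p = 8.53e-07), -1.48 ± 0.14 on day 2 (adjusted p = 4.41e-08) and -1.65 ± 0.14 on day 4 (adjusted p = 6.01e-09). In Mll1-deleted cultures the change was called on day 4, at -0.43 ± 0.14 (adjusted p = 0.0233), and lost without mouse 489 or 814 (adjusted p = 0.0964 and 0.231) or with the values quantile normalised again (adjusted p = 0.0652).

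The genotype difference of Phlda1 was 1.05 ± 0.15 on day 1 (adjusted p = 6.46e-05), 1.45 ± 0.15 on day 2 (adjusted p = 1.12e-06) and 1.25 ± 0.15 on day 4 (adjusted p = 1.31e-05), and 0.94 ± 0.07 over the mean of the 4 days (adjusted p = 0.00021). The difference in change was 1.02 ± 0.20 on day 1 (adjusted p = 0.0061), 1.42 ± 0.20 on day 2 (adjusted p = 0.000165) and 1.22 ± 0.20 on day 4 (adjusted p = 0.000778). That of day 1 was lost without mouse 489, 818 or 870 (adjusted p = 0.0737, 0.0667 and 0.0913). The 7 oligodendrocyte lineage markers, all measured and none under the lower quartile in any group, summed on day 0 to 3328 to 5592 in Mll1-deleted and 5859 to 6031 in wild-type cultures. On day 1 the sums were 6234 to 6900 and 2748 to 3291, on day 2 they were 4947 to 7477 and 2465 to 3246, and on day 4 they were 5811 to 9287 and 2400 to 2851. On days 1, 2 and 4 all Mll1-deleted sums lay above all wild-type ones, and on day 0 all lay below them. From day 0 to day 1 the sum rose in all 3 Mll1-deleted mice. The 6 neuroblast markers summed on day 0 to 2047 to 2871 in Mll1-deleted and 1464 to 1573 in wild-type cultures. On day 1 their sums were 1857 to 3073 and 3434 to 5365, and on day 2 they were 2049 to 4751 and 7740 to 11110. On day 4 they were 2201 to 5357 and 4191 to 5538. Dcx lay under the lower quartile in Mll1-deleted cultures on day 0. The part of these cell types in the differences of Phlda1 and the other members was not tested.

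Ier2, a nuclear protein encoded by a growth factor-inducible gene, fell in wild-type cultures and was already low in Mll1-deleted ones. In Mll1-deleted cultures Ier2 read 107, 96.1 and 101 on day 0, 96.9, 94.7 and 109 on day 1, 115, 106 and 115 on day 2, and 122, 87.7 and 91.9 on day 4. The wild-type readings were 164, 169.6 and 142 on day 0, 100.0, 117 and 107 on day 1, 109, 116 and 111 on day 2, and 78.5, 89.7 and 109 on day 4. The groups were apart on day 0 and overlapped on the later days. The wild-type change was -0.55 ± 0.13 on day 1 (adjusted p = 0.00216), -0.50 ± 0.13 on day 2 (adjusted p = 0.00353) and -0.78 ± 0.13 on day 4 (adjusted p = 2.82e-05). The day 0 difference was -0.64 ± 0.13 (adjusted p = 0.00156). For Ier2 the difference in change was 0.64 ± 0.18 on day 2 (adjusted p = 0.0388) and 0.75 ± 0.18 on day 4 (adjusted p = 0.0137). The day 2 call was lost without any one of the 6 mice, at an adjusted p of 0.088 without mouse 489, 0.134 without mouse 814, 0.0792 without mouse 858, 0.149 without mouse 818, 0.135 without mouse 862 and 0.0594 without mouse 870, and with the values quantile normalised again (adjusted p = 0.0542). That of day 4 was lost without mouse 489, 818 or 862 (adjusted p = 0.0935, 0.0941 and 0.0986) and in a fit to the arrays compared alone (adjusted p = 0.06).

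Myc, the basic helix-loop-helix factor that drives growth and cell division together with Max, dipped on day 1 in wild-type cultures and was above wild-type in Mll1-deleted cultures from day 1 on. In Mll1-deleted cultures it read 536, 646 and 388 on day 0, 593, 401 and 434 on day 1, 709, 625 and 815 on day 2, and 738, 714 and 923 on day 4. Wild-type cultures gave 537, 515 and 509.8 on day 0, 245, 281 and 269 on day 1, 414, 483 and 468 on day 2, and 509, 509 and 468 on day 4. The groups overlapped on day 0 and were apart on the later days. The wild-type change was -0.98 ± 0.16 on day 1 (adjusted p = 7.59e-05), followed by 0.78 ± 0.16 from day 1 to day 2 (adjusted p = 0.00524, and 0.0877, 0.0693 and 0.0977 without mouse 818, 862 and 870). In Mll1-deleted cultures Myc was above day 0 by 0.62 ± 0.16 on day 4 (adjusted p = 0.00484, and 0.30 at an adjusted p of 0.17 without mouse 858) and by 0.48 ± 0.16 on day 2 (adjusted p = 0.0332). That of day 2 was lost without mouse 489, 818, 858, 862 or 870 (adjusted p = 0.082, 0.0525, 0.525, 0.0614 and 0.0622), and without mouse 858 the change was 0.18. It was also lost with each array shifted to 1 median (adjusted p = 0.0812) and in a fit to the arrays compared alone (adjusted p = 0.124).

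The genotype difference of Myc was 0.83 ± 0.17 on day 1 (adjusted p = 0.00256, 0.0518 without mouse 489), 0.65 ± 0.17 on day 2 (adjusted p = 0.0158) and 0.67 ± 0.17 on day 4 (adjusted p = 0.0166). That of day 2 was lost without mouse 489, 818, 862 or 870 (adjusted p = 0.0518, 0.12, 0.055 and 0.0696), and that of day 4 without mouse 862 or 870 (adjusted p = 0.0812 and 0.127). Over the mean of the 4 days it was 0.53 ± 0.07 (adjusted p = 0.00314), which was called under every alternative tried. The difference in change was 0.85 ± 0.23 on day 1 (adjusted p = 0.0451) and was lost without mouse 489, 818, 862 or 870 (adjusted p = 0.273, 0.243, 0.154 and 0.192), in a fit to the arrays compared alone (adjusted p = 0.139) and with the values quantile normalised again (adjusted p = 0.0653). On days 2 and 4 it was 0.67 ± 0.23 and 0.69 ± 0.23 (adjusted p = 0.0932 and 0.0747, and 0.0265 and 0.0253 without mouse 814).

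Other immediate early genes, 59 of 60 listed, had more members called lower than higher on day 1 in both genotypes, as had all genes. In Mll1-deleted cultures 4 rose and 21 fell (median log2 change -0.19, beside -0.02 over all genes), and in wild-type cultures 6 rose and 24 fell (median -0.20, beside 0.02). Over all genes 12.4% were called in either direction in Mll1-deleted and 25.5% in wild-type cultures. The 25 Mll1-deleted calls were 13 without mouse 489 and 15 without mouse 814. The 4 that rose were Btg2, an antiproliferative gene (1.57 ± 0.17, adjusted p = 3.84e-06), Zfp36l1 (1.15 ± 0.15), Gadd45g (1.59 ± 0.26) and Rhob (0.59 ± 0.16, adjusted p = 0.0142, and 0.187 and 0.143 without mouse 489 and 858 and 0.102 with the arrays compared alone). Jun, the main partner of Fos in AP-1, averaged 1028 ± 98.4 on day 1 and 1085 ± 141 on day 0 in Mll1-deleted cultures, and 608 ± 5.34 on day 1 and 1343 ± 58.2 on day 0 in wild-type cultures (SD, n = 3 each). Its change was -0.07 ± 0.11 in Mll1-deleted (adjusted p = 0.79) and -1.14 ± 0.11 in wild-type cultures (adjusted p = 6.55e-08), and the difference of 1.07 ± 0.15 (adjusted p = 0.000314) was called under every alternative tried. Arc, known from synaptic plasticity, differed from day 0 by 0.08 ± 0.11 in Mll1-deleted (adjusted p = 0.763) and by -1.05 ± 0.11 in wild-type cultures (adjusted p = 3.3e-07), a difference of 1.14 ± 0.16 (adjusted p = 0.000254) that was also called under every alternative tried. The third with a more positive change was Bhlhe40, a transcriptional repressor, at 1.07 ± 0.20 (adjusted p = 0.00467, and 0.056 and 0.0735 without mouse 489 and 814).

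Between the genotypes 10.1% of all genes were called on day 0 and 2.43% in the day 1 difference in change. On day 0, 11 of the 59 were higher and 8 lower in Mll1-deleted cultures (12 calls without mouse 814), with Ptgs2, the inducible cyclooxygenase, at 2.42 ± 0.27 and Ccn1, a matricellular protein, at 1.94 ± 0.21, while Arc was at -0.91 ± 0.11 and Bhlhe40 at -0.96 ± 0.14. In the day 1 difference in change 3 were more positive and 4 more negative. The replicate block called 14 in all, as did the fit without mouse 858, while 3 were called without mouse 489 and 4 without mouse 818 or 870. The 4 negative ones were Ccn1 (-1.88 ± 0.33, adjusted p = 0.0021, called under every alternative tried), Ptgs2 (-1.82 ± 0.37, adjusted p = 0.00763, and 0.108, 0.052 and 0.12 without mouse 489, 818 and 870 and 0.074 with the arrays compared alone), Zfp36 (-0.68 ± 0.16) and Rgs2 (-1.19 ± 0.31). The call of Zfp36 was lost without any one of mice 489, 814, 818, 862 and 870 (adjusted p = 0.127, 0.225, 0.0917, 0.122 and 0.0512) and with the arrays compared alone (adjusted p = 0.084). That of Rgs2 was lost without any one of the same mice (adjusted p = 0.127, 0.0888, 0.193, 0.184 and 0.171), with the arrays compared alone (adjusted p = 0.18) and under both other scalings (adjusted p = 0.0631 and 0.0691).

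**Figure D4:**
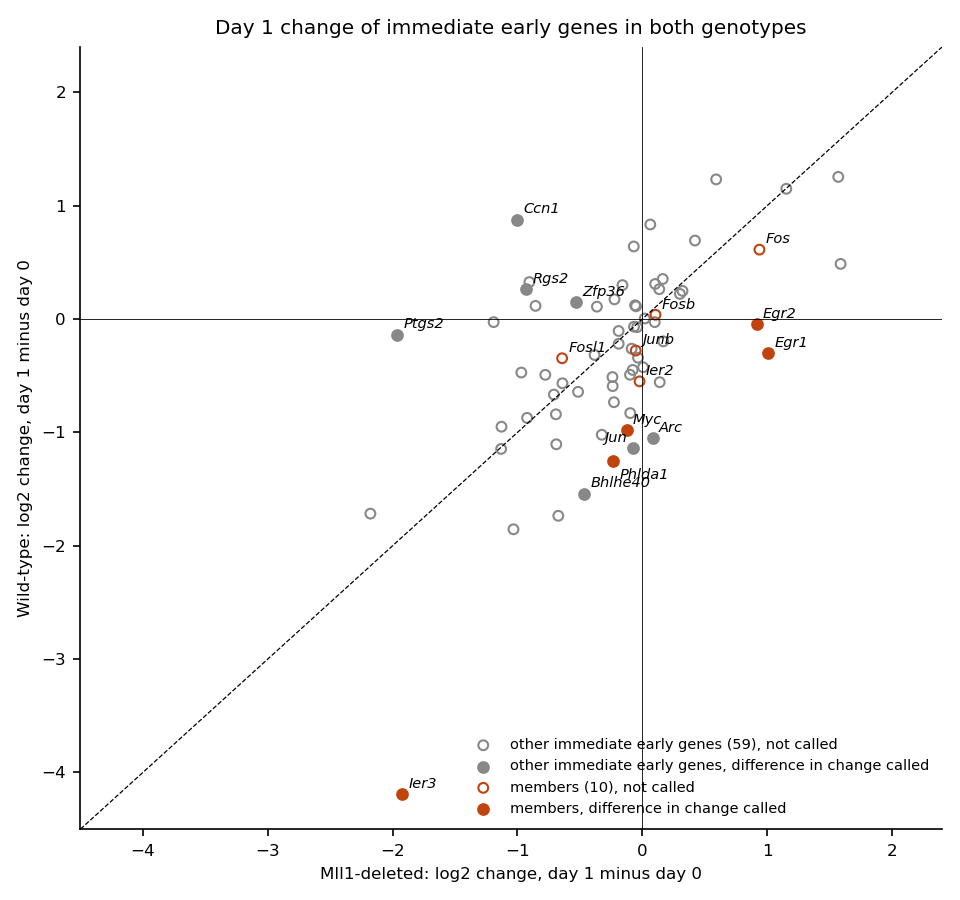
log2 change from day 0 to day 1 in Mll1-deleted cultures (x axis) against that in wild-type cultures (y axis) for the 10 members (orange) and 59 other immediate early genes (grey), with filled points where the difference in change passed the test and a dashed line of equal change. Ier3, Myc, Phlda1, Jun and Arc lie below the line, and Ccn1 and Ptgs2 lie above it.

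Receptors, kinases and SRF cofactors upstream made up a list of 30, all measured. On day 1, 2 rose and 4 fell in Mll1-deleted cultures (3 calls in all without mouse 489 or 814), and 2 rose and 8 fell in wild-type cultures (6 calls without mouse 870), beside 12.4% and 25.5% of all genes called. Egfr, the EGF receptor, averaged 519.5 ± 132 on day 0 and 2109 ± 143 on day 1 in Mll1-deleted cultures, and 1542 ± 121 on day 0 and 2266 ± 218 on day 1 in wild-type cultures (SD, n = 3 each). Its change was 2.05 ± 0.23 in Mll1-deleted (adjusted p = 3.84e-06) and 0.55 ± 0.23 in wild-type cultures (adjusted p = 0.08). The genotype difference of Egfr was -1.60 ± 0.24 on day 0 (adjusted p = 7.87e-05) and -0.10 ± 0.24 on day 1 (adjusted p = 0.888). In Egfr this gave a difference in change of 1.495 ± 0.32 (adjusted p = 0.0119) and was lost without mouse 489, 814, 818, 862 or 870 (adjusted p = 0.0967, 0.0531, 0.0975, 0.0664 and 0.0727). Hras fell in both genotypes, with changes of -0.66 ± 0.09 in Mll1-deleted and -0.55 ± 0.09 in wild-type cultures (adjusted p = 6.54e-05 and 9.48e-05). Map2k1, which encodes MEK1, and Rps6ka3, an ERK-activated kinase, fell in wild-type cultures, with changes of -0.90 ± 0.12 and -0.84 ± 0.14 (adjusted p = 7.13e-06 and 8.53e-05), with -0.22 ± 0.12 and -0.40 ± 0.14 in Mll1-deleted cultures (adjusted p = 0.305 and 0.0676). The day 1 difference in change was called for 2 of the 30, Egfr and Map2k1, beside 2.43% of all genes, and not for Rps6ka3. That of Map2k1 was 0.69 (adjusted p = 0.0307). It was lost without mouse 489, 814, 818, 862 or 870 (adjusted p = 0.234, 0.16, 0.0667, 0.101 and 0.161). A fit to the arrays compared alone lost it too (adjusted p = 0.0793).

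Genes that growth factors and AP-1 are known to switch on later, made up a list of 22, all measured. On day 1, 1 rose and 12 fell in Mll1-deleted cultures (median -0.85), beside 5.87% of all genes called higher and 6.52% called lower. The calls were 8 without mouse 489. In wild-type cultures 11 fell (median -0.54), beside 13.8% of all genes called lower. The wild-type calls were 5 without mouse 818, 6 without mouse 862 and 7 without mouse 870. Vegfa, the endothelial growth factor, averaged 434 ± 124 in Mll1-deleted and 1613 ± 299 in wild-type cultures on day 0, and 247 ± 5.49 and 258 ± 11.7 on day 1 (SD, n = 3 each). Its change was -0.78 ± 0.19 in Mll1-deleted cultures (adjusted p = 0.0077, 0.0573 and 0.0943 without mouse 489 and 858, and 0.065 with the arrays compared alone) and -2.63 ± 0.19 in wild-type ones (adjusted p = 2.11e-09), and the difference of 1.85 ± 0.27 (adjusted p = 0.000429) was called under every alternative tried. Ccnd1, which encodes cyclin D1, averaged 4075 ± 1980 in Mll1-deleted and 901 ± 86.8 in wild-type cultures on day 1, and 10660 ± 1980 and 10670 ± 275 on day 0 (SD, n = 3 each). For Ccnd1 the difference in change was 2.08 ± 0.40 (adjusted p = 0.00556, and 0.0573, 0.0512 and 0.0623 without mouse 489, 818 and 870). Hbegf, a ligand of the EGF receptor, changed by -1.12 ± 0.28 in Mll1-deleted (adjusted p = 0.00923, 0.099 without mouse 814 and 0.113 with the arrays compared alone) and by -2.18 ± 0.28 in wild-type cultures (adjusted p = 4.43e-06). Mmp3, a metalloprotease, averaged 22.8 ± 1.56 on day 1 and 114 ± 64.5 on day 0 in Mll1-deleted cultures (SD, n = 3 each), and its day 1 reading lies under the lower quartile of the arrays, so that no fold is given.

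Myc acts with partner proteins and raises genes for growth. Of 11 partners, 2 rose and 1 fell on day 1 in Mll1-deleted cultures (5 calls with the replicate block and 1 without mouse 489), and 6 rose and 1 fell in wild-type cultures (3 calls without mouse 818), beside 12.4% and 25.5% of all genes called. Mycn, the paralogue used in neural progenitors, averaged 345 ± 92.2 on day 1 in Mll1-deleted and 514 ± 96.7 in wild-type cultures, and 211 ± 72.2 and 122 ± 10.9 on day 0 (SD, n = 3 each). It rose by 2.06 ± 0.22 in wild-type cultures (adjusted p = 4.48e-07), where Myc fell, and by 0.74 ± 0.22 in Mll1-deleted cultures (adjusted p = 0.0293, 0.104, 0.236 and 0.0514 without mouse 489, 858 and 870, and 0.198 with the arrays compared alone). The day 1 difference in change of Mycn was -1.32 (adjusted p = 0.0225). It was lost without mouse 814, 818, 862 or 870 (adjusted p = 0.178, 0.126, 0.0543 and 0.174) and with the arrays compared alone (adjusted p = 0.0879). On day 0 Mycn was higher in Mll1-deleted cultures by 0.73 (adjusted p = 0.0215). That call was lost without the same mice (adjusted p = 0.239, 0.0566, 0.0792 and 0.111) and with the arrays compared alone (adjusted p = 0.102). Mxi1, which competes with Myc for Max, rose by 0.69 ± 0.18 in Mll1-deleted (adjusted p = 0.0112, 0.148 without mouse 489 and 0.145 with the arrays compared alone) and by 0.77 ± 0.18 in wild-type cultures (adjusted p = 0.00218). Mlx, a Max-like protein, fell in both, with changes of -0.55 ± 0.11 in Mll1-deleted (adjusted p = 0.00108, 0.0506 with the arrays compared alone) and -0.67 ± 0.11 in wild-type cultures (adjusted p = 5.62e-05). Mycl, a further paralogue, was at 0.55 ± 0.19 in Mll1-deleted (adjusted p = 0.0684) and 0.78 ± 0.19 in wild-type cultures (adjusted p = 0.00404, 0.0647 without mouse 818). Of genes for ribosome building, nucleotide synthesis and metabolism, 25 of 26 listed were measured. On day 1, 10 of these fell in Mll1-deleted cultures (median -0.35), against 6.52% of all genes called lower. The calls were 5 without mouse 489 and 6 without mouse 858. In wild-type cultures 19 fell (median -0.60), against 13.8% of all genes called lower. Ldha, lactate dehydrogenase A, fell in both, with changes of -0.62 ± 0.12 in Mll1-deleted (adjusted p = 0.00119, 0.0521 with the arrays compared alone) and -1.39 ± 0.12 in wild-type cultures (adjusted p = 2.59e-08). Umps, of pyrimidine synthesis, was at -0.94 ± 0.18 in Mll1-deleted (adjusted p = 0.000932, 0.0667 with the arrays compared alone) and -1.09 ± 0.18 in wild-type cultures (adjusted p = 7.53e-05). Nme1, a nucleoside diphosphate kinase, was at -0.44 ± 0.10 in Mll1-deleted (adjusted p = 0.00369, 0.066 without mouse 489 and 0.0991 with the arrays compared alone) and -0.60 ± 0.10 in wild-type cultures (adjusted p = 6.45e-05). Srm, spermidine synthase, was at -0.91 ± 0.15 in Mll1-deleted (adjusted p = 0.00031) and -0.48 ± 0.15 in wild-type cultures (adjusted p = 0.0213, 0.218 and 0.068 without mouse 862 and 870, and 0.0625 with the values quantile normalised again).

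Across the 24 arrays, which share mice and days, the members were only loosely alike. The highest correlation of a pair was that of Egr1 and Egr2 (Pearson r of 0.738), and Fos ran against Fosl1 (-0.709) and Ier3 (-0.611). Among 17239 genes searched, Phlda1 was most like Prrx1 (0.964) and Olig1 (0.924), Ier3 most like Adamts14 (0.956) and Hk2 (0.955), and Fos most like Apoe (0.949) and Dbi (0.94). Egr2 was most like Itgb8 (0.856) and Adamts17 (0.799), Egr1 like Eif1b (0.841) and Sbf2 (0.814), Fosl1 like Sele (0.871) and Clcf1 (0.852), and Myc like Csnk1a1 (0.804) and Ndrg1 (0.781). Ier2 was most like Lalba (0.817) and Galnt14 (0.8), Junb like AY036118 (0.795) and Abhd16a (0.761), and Fosb like Vwf (0.734) and Nuggc (0.697). Group means of Nuggc ran from 23.3 to 26.9, among the lower quartiles of the arrays (23.3 to 28.3). Lalba averaged 60.2 in wild-type cultures on day 0 and 25.9 to 33.0 in the other groups, so both lie near the floor. The mean of the members, each scaled over the arrays, was most like Sh2b3 (0.735), Nab2 (0.727), Jun (0.718), Mmp15 (0.7) and Ets2 (0.7), and Nab2 encodes a corepressor of Egr proteins. Nab2 averaged 493 ± 37.9 in Mll1-deleted and 741 ± 33.7 in wild-type cultures on day 0 (SD, n = 3 each).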

How the data were processed

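Each of the 24 cultures gave biotin-labelled material for 1 Affymetrix array. The authors deposited 1 intensity per probe set and array, made by RMA with Affymetrix Power Tools, per the submitters' processing notes, which also name mm9 and give no versions. The deposited intensities are linear and log2 was taken here. RMA includes background correction and quantile normalisation, so shifts of whole arrays are removed. No measure of background was used, and the number of arrays limits the precision. A second deposited table gives symbols and a cross-hybridisation code. Its meaning is not given in the sources used here, and 1 was read as unique. Of 28350 probe sets, 22232 carry 1 symbol, 2980 several and 3138 none; those with 1 were used, 2126 symbols were updated through RefSeq, and the brightest probe set stood for each of 576 genes with several, which left 21072 genes.

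limma 3.58.1 in R 4.3.3 fitted 8 group means to the 24 arrays. For the genotypes on a day, duplicateCorrelation let arrays of one mouse correlate (0.165 over all genes); over the mean of days 6 mouse means were fitted. Tests are 2-sided, with p-values adjusted by Benjamini-Hochberg over all genes, in 18 comparisons. The mouse ID pairs arrays across days: after removal of day means, arrays of one mouse correlated at a median r of 0.31 in Mll1-deleted (18 of 18 pairs over 0.1) and 0.216 in wild-type cultures (16 of 18), and arrays of different mice at -0.143 and -0.123. The fit with the mouse as replicate block is an alternative, named where it changes a call. Other alternatives are given in the closing section. The fit was tested on simulated data with independent noise and no mouse effect, so that this test does not bear on the pairing by mouse.

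The members and the 5 lists of other genes were chosen with earlier results of these data known. All members are named; of each list the 4 genes with the smallest p on day 1, plus genes behind counts of 5 or fewer where these are described, and for each member the 2 genes of highest correlation. Figures were drawn with matplotlib 3.10.9.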

Additional observations from a re-analysis of the deposited data

Results flagged for a closer look

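The change from day 0 differed between the genotypes, by the interaction test in limma with adjusted p under 0.05, for 15 pairs of a member and a day, each more positive in Mll1-deleted cultures. On day 1 the difference in log2 change was 1.30 for Egr1, 0.96 for Egr2, 2.27 for Ier3, 0.85 for Myc and 1.02 for Phlda1. On day 2 it was 1.90 for Egr1, 1.23 for Egr2, 0.64 for Ier2, 2.12 for Ier3 and 1.42 for Phlda1. On day 4 it was 0.97 for Fos, 1.60 for Egr1, 0.75 for Ier2, 2.03 for Ier3 and 1.22 for Phlda1. All rest on the same day 0 arrays, on which Fos, Egr1, Ier2 and Ier3 were lower in Mll1-deleted cultures.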

How the results depend on the processing

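Of 66 called member results, 39 were called under each of the 16 alternatives that could be run for them, 27 lost the call under at least 1, and 0 reversed. The alternatives were 2 other scalings, the mean of probe sets, code 1 probe sets only, dim genes left out, a pseudocount of 16, an intensity trend, the replicate block or no random effect, the arrays compared alone, and each mouse left out. The count of members called was 3 in a fit to the arrays compared alone for Mll1-deleted day 1 against day 0 and for the day 1 difference in change (5 in both as reported). With the paired fit (replicate block) it was 2 for Mll1-deleted day 2 against day 1 (0 as reported). The block also called Fos in wild-type cultures on day 4 (adjusted p = 0.0338) and the day 2 difference in change of Fos (adjusted p = 0.0271), and changed no other member call. With 1 mouse left out, the count of members called ran from 4 to 7 for Mll1-deleted day 4 against day 0, 0 to 2 for Mll1-deleted day 2 against day 1, 1 to 2 for day 4 against day 2, 0 to 1 for wild-type day 2 against day 1 and for day 4 against day 2, 1 to 5 for the genotypes on day 2, 1 to 3 on day 4, 1 to 5 for the difference in change on day 1 and 3 to 6 on day 4. Fewer arrays were fitted there. Each member has 1 probe set, of code 1, so the mean of probe sets and code 1 probe sets only left member values unchanged. Leaving out dim genes also left them unchanged. These settings could move a member call only through the shared estimate of spread or the adjustment. Shifting arrays to 1 median moved the median of all genes by -0.13 in Mll1-deleted cultures on day 4 and by -0.14 in wild-type cultures on days 2 and 4, and by under 0.1 elsewhere. Arrays of 3 mice a group limit what can be called.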
